A study of Mus musculus with 2 samples.

Results

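The MHC class II genes were followed through every cell class of a mouse prostate tumour series profiled by single-cell RNA sequencing. The set comprised 8 genes, H2-Aa, H2-Ab1, H2-Eb1, H2-DMa, H2-DMb1, Cd74, Ciita and Ctss, chosen by name out of 19320 features, and all 8 were measured. Of the 2 labelled samples, the first is prostatic intraepithelial neoplasia, here PIN, and the other is adenocarcinoma of the prostate, here PCa, with 1 library each and no replicates. Per the study's methods, both came from R26 mTmG/hAR:Osr1 Cre/+ mice on a mixed C57BL/6 and 129S1/SvImJ background, aged 6 months (PIN) and 12 months (PCa). In these mice the Osr1 driven Cre recombinase switches on a human androgen receptor transgene and, from the reporter allele, membrane-bound green fluorescent protein (listed as EGFP). Every animal carried the transgene, so no tissue without it was available for comparison, and the EGFP allele is switched on only by recombination. Whether tissue from several animals was pooled was not given in the sources used here.

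Cell barcodes ended in 1 of 2 suffixes that no label ties to a tissue. The suffixes were therefore treated as barcode set 1 (6332 cells, median 17235 UMIs) and barcode set 2 (9410 cells, median 14824 UMIs), and no cell was called PIN or PCa. A UMI is a tag that marks 1 captured RNA molecule. The sets shared 67 barcode sequences. Any difference between the sets can stem from tissue, age, animal or library, and these cannot be told apart. Levels are given in CPM, the UMIs of a gene per 1000000 UMIs of a cell class, with exact Poisson 95% intervals. For percentages of cells the 95% interval is that of Clopper and Pearson. All intervals cover counting error only. No p-value is given because each labelled sample is 1 library and neither set has labelled replicates. Classes were named "-like" from marker genes. Macrophage-like cells carried all 10 of their markers, though Fcgr1 was in 51.05% and Mrc1 in 25.1% of cells (Adgre1 in 84.5%). The dendritic-like cluster rested on 3 markers, Flt3, Itgax and Ccr7. The rest of that list (Zbtb46, Xcr1, Clec9a, Cd209a, Clec10a and Fscn1) were each in 10.6 to 24.2% of its cells.

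MHC class II molecules are heterodimers at the cell surface that display peptides from endocytosed proteins to CD4+ T cells. H2-Aa and H2-Ab1 encode the chains of I-A, and H2-Eb1 encodes the beta chain of I-E. Cd74, the invariant chain, occupies the groove until it is degraded in endosomes, with cathepsin S (Ctss) making the late cuts, and H2-DM (H2-DMa and H2-DMb1) then exchanges its remnant for peptide. Ciita is the coactivator that switches on the class II promoters. Expression is constitutive in dendritic cells, B cells and many macrophages, and many epithelial, endothelial and stromal cells acquire it under interferon gamma.

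In mm10 coordinates of the RefSeq annotation (GRCm38.p6), 5 of the genes lie together in the MHC on chromosome 17: H2-DMa (chr17:34119693-34139101), H2-DMb1 (chr17:34153191-34160229), H2-Ab1 (chr17:34263227-34269418), H2-Aa (chr17:34282744-34287823) and H2-Eb1 (chr17:34305867-34316674). Class II promoters share X and Y boxes, which bind the RFX and NF-Y complexes that recruit CIITA. Promoter windows of 300 bases from RefSeq (GRCm38.p6), 250 before and 50 after the start, were at hand for 5 of the 8 genes. Cores of the X box (ACNGATG) and the Y box (TGATTGG) were searched on both strands. These cores do not overlap here. The stretches from 100 to 36 bases before the start of 3 members are shown, since they hold the element through which the genes are known to be switched on together. They are written 5′ to 3′ on the strand of the gene, with the matched cores in capitals, for H2-Eb1 (chr17:34305767-34305831, plus strand), H2-DMb1 (chr17:34153091-34153155, plus strand) and H2-Aa (chr17:34287859-34287923, minus strand).
H2-Eb1: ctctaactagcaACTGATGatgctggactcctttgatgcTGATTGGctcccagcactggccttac
H2-DMb1: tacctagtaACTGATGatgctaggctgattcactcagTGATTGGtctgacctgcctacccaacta
H2-Aa: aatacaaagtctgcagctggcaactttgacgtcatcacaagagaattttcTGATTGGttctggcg
In H2-Eb1 the X core starts 88 bases and the Y core 61 bases before the gene start, and in H2-DMb1 they start 91 and 63 bases before it. In this stretch H2-Aa matched the Y core alone, 50 bases before its start. The Y core occurred in 7.82% and the X core in 9.85% of all 32851 promoters. An X core followed by a Y core within 40 bases occurred in 9 promoters (0.0274%), and 4 of these belong to H2-Eb1, H2-DMb1, H2-DMb2 and H2-Eb2. In their whole windows Ctss matched an X core only and H2-DMa neither. A match is a description of letters, not a bound site.

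The other 3 members lie outside the MHC, Ctss on chromosome 3 (95526786 to 95556405), Ciita on chromosome 16 (10480014 to 10531064) and Cd74 on chromosome 18 (60803849 to 60812652).

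Macrophage-like and dendritic-like cells carried the highest class II levels, and macrophage-like cells differed between the sets. In set 1 the 39 macrophage-like cells held 53698 CPM of Cd74 (52985 to 54418), and in set 2 the 200 macrophage-like cells held 9253 (9104 to 9404). H2-Aa stood at 21286 CPM in set 1 and 3416 in set 2, H2-Ab1 at 18712 and 3223, and H2-Eb1 at 21035 and 1549. With fewer than 50 macrophage-like cells in set 1 no ratio was formed. The cells behind these sums were spread differently. In set 1 every macrophage-like cell carried at least 117 Cd74 UMIs per 10000 (median 526, quartiles 404 and 675, highest 1036). In set 2 the median was 30.5, with quartiles at 2.08 and 228, 15% of the cells had 0 Cd74 UMIs, and the highest cell reached 822. The ranges overlapped. When each cell weighed the same, Cd74 in set 2 was 12846 CPM.

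The other genes of the pathway did not all differ in the same way in macrophage-like cells. H2-DMa was at 687 CPM in set 1 and 210 in set 2, and H2-DMb1 at 509 and 134. H2-DMb1 has a near-identical neighbour, H2-DMb2, so the split of reads between them is uncertain. Ciita was sparse, with 27 UMIs (67.0 CPM, 44.2 to 97.5) in set 1 and 8 UMIs (5.03 CPM, 2.17 to 9.92) in set 2. Ctss went the other way, with 3395 CPM (3217 to 3579) in set 1 and 4928 (4819 to 5038) in set 2.

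Dendritic-like cells were high in both sets. Cd74 was at 34274 CPM in 45 cells of set 1 and 41305 in 21 cells of set 2, and every dendritic-like cell carried it. H2-Aa (13792 and 16919 CPM) and H2-Ab1 (13422 and 15689) were likewise higher in set 2, whereas H2-Eb1 was higher in set 1 (12082 and 7892). Plasma-like cells (31 in set 1) had 8094 CPM of Cd74 but only 272 of H2-Aa, or 3.36 H2-Aa UMIs per 100 Cd74 UMIs against 40.2 in dendritic-like cells of set 1. The remaining leukocyte-like cells were mostly clusters led by genes of T, NK and innate lymphoid cells, such as Gzma, Klrd1, Gzmk and Il17a. In set 1 (988 cells) they had 738 CPM of Cd74, but 77.8% of those UMIs lay in the top 1% of cells, and 5 of their 6 clusters had 140 to 491 CPM. The sixth, 32 cells led by cell cycle genes, had 3822 CPM.

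**Figure D1:**
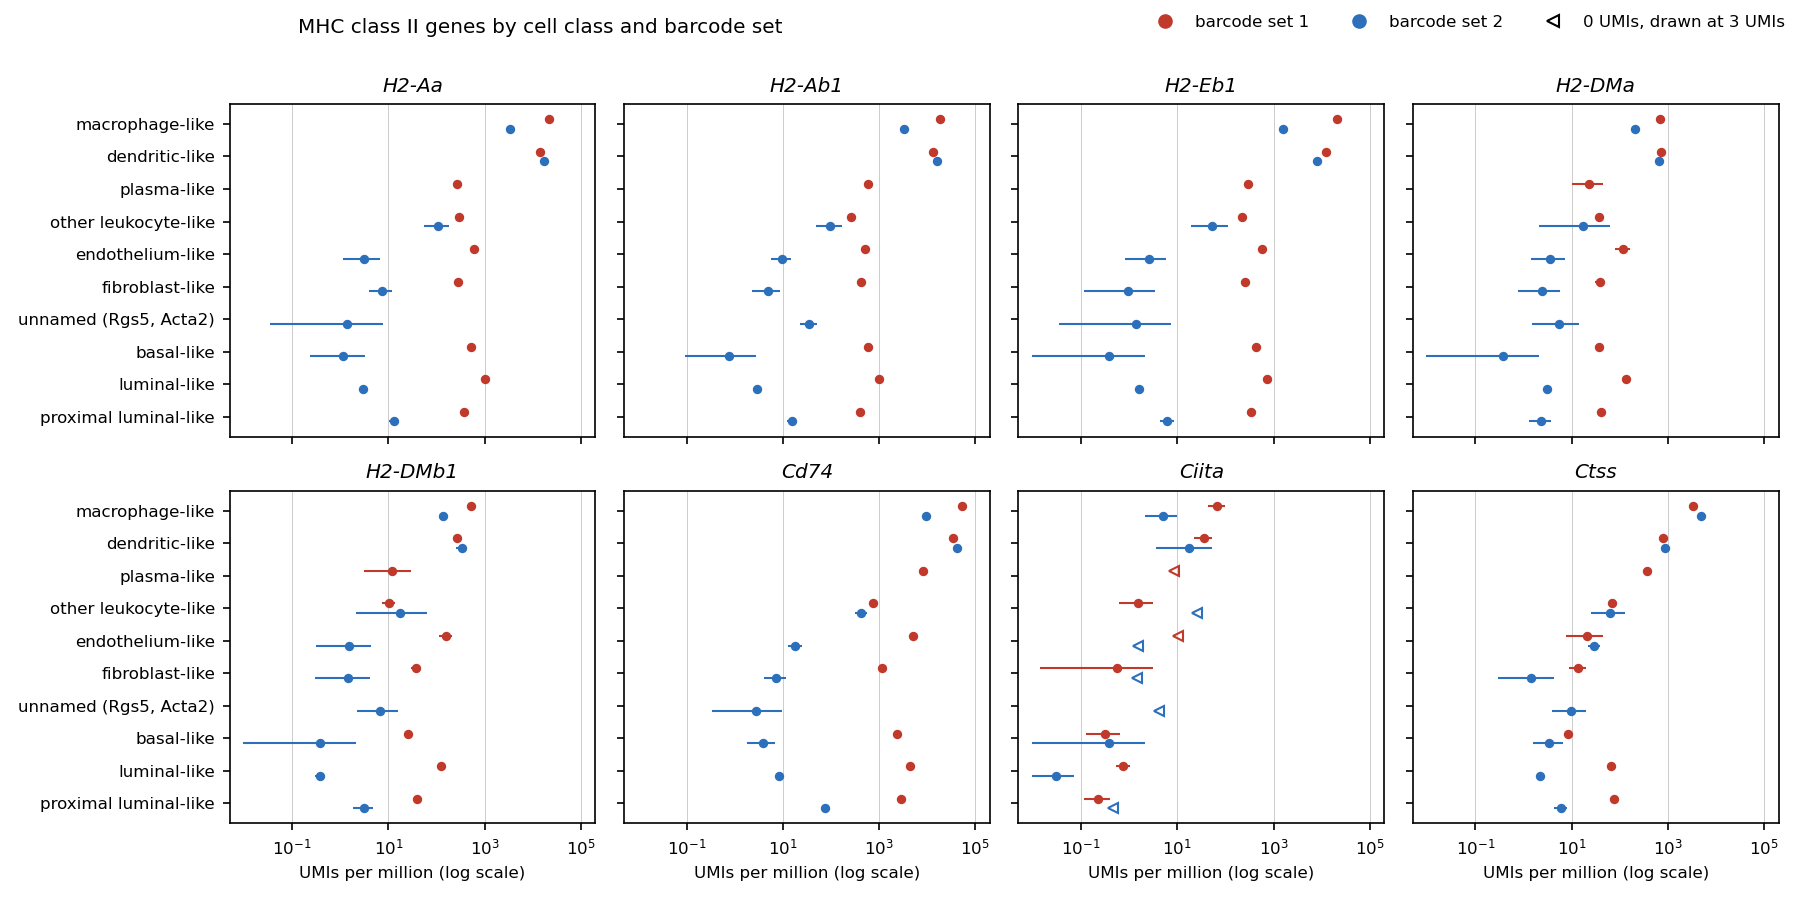
Level of each class II gene in UMIs per 1000000 (CPM, log axis) by cell class, for barcode set 1 (red) and set 2 (blue), with exact Poisson 95% intervals and open triangles where no UMI was seen. In basal-like, luminal-like, proximal luminal-like, endothelium-like and fibroblast-like cells the set 1 points for Cd74 lie between 1163 and 5002 CPM and the set 2 points between 3.78 and 76.1 CPM.

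Epithelial cells of set 1 carried class II transcripts at far higher levels than those of set 2. Cd74 was at 4479 CPM (4460 to 4497) in 1577 luminal-like cells of set 1 and at 8.48 (8.04 to 8.93) in 7666 of set 2. In basal-like cells it was at 2403 CPM in set 1 (1701 cells) and 3.78 in set 2 (361 cells). In proximal luminal-like cells it was at 2894 CPM in set 1 (1543 cells) and 76.1 in set 2 (309 cells). H2-Aa stood at 1023 and 3.02 CPM in luminal-like cells of sets 1 and 2, at 531 and 1.13 in basal-like cells, and at 374 and 13.03 in proximal luminal-like cells. H2-Ab1 and H2-Eb1 followed the same order, with H2-Eb1 at 730, 443 and 333 CPM in luminal-like, basal-like and proximal luminal-like cells of set 1.

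The peptide-loading and proteolysis genes were also present. H2-DMa was at 135 CPM and H2-DMb1 at 124 in luminal-like cells of set 1, against 3.07 and 0.378 in set 2. In basal-like cells of set 1 they were lower, at 36.1 and 25.2 CPM. Ctss was at 66.9 CPM in luminal-like and 74.7 in proximal luminal-like cells of set 1 but at 8.41 in basal-like cells. Ciita gave 39 UMIs in all luminal-like cells of set 1 (0.762 CPM, 0.542 to 1.04), 11 UMIs in proximal luminal-like and 7 in basal-like cells. In set 2 luminal-like cells it gave 5 UMIs (0.0300 CPM), although 166532572 UMIs had been sampled there against 51190012 in set 1.

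Levels differed among the epithelial clusters of set 1. Luminal cluster 11 (405 cells, led by Msmb and Pbsn) and cluster 12 (286 cells, led by Sbp and Spink1) had 6607 and 6423 CPM of Cd74 and 1517 and 1637 of H2-Aa. Cluster 1 (278 cells, led by Svs5) and cluster 6 (566 cells, led by Tgm4) had 2865 and 2186 CPM of Cd74, and the 36 cycling cells of cluster 7 had 5829. The proximal luminal-like clusters were close in Cd74, with 3023 CPM in cluster 5 (1218 cells, led by Clu and Krt6a) and 2421 in cluster 10 (325 cells, led by Msln and Psca). Ctss was highest in cluster 12, at 142 CPM. The order from cluster 11 and 12 through cluster 7 to 5, 1, 10, basal cluster 0 and 6 had neighbours with overlapping counting intervals only for cluster 10 and cluster 0 (2391 to 2451 and 2382 to 2423).

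In summed Cd74 level, 1 epithelial cluster of set 2 stood apart. In cluster 10, 133 cells had 188 CPM of Cd74 (172 to 206), against 1.51 to 16.6 CPM in the other epithelial clusters of that set. Thinned to 3000 UMIs per cell, 13.6% of its cells (8.29 to 20.7%) had a Cd74 UMI, against 0.592% (0.0717 to 2.12%) in cluster 0 to 3.49% (0.725 to 9.86%) in cluster 12 among the others, and the interval of cluster 10 overlapped those of clusters 11 and 12. Few cells carried the sum, as 48.99% of the Cd74 UMIs of cluster 10 came from its top 1% of cells and 73.7% of its cells had none. Only 6 of the 133 cells had 20 or more Cd74 UMIs, and 4 of those 6 also had a UMI of a leukocyte reference gene.

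Elsewhere in set 2 the signal likewise lay mostly in few cells. In luminal-like cells of set 2, 83.7% of the Cd74 UMIs came from the top 1% of cells, and 14 of 7666 cells had 20 or more Cd74 UMIs. All 14 also carried a leukocyte reference UMI. In set 1, by contrast, 926 of 1577 luminal-like cells had 20 or more Cd74 UMIs, and 841 of these had no UMI of any of the 10 reference genes (Ptprc, Laptm5, Tyrobp, Fcer1g, Coro1a, Cd53, C1qa, C1qb, C1qc and Csf1r). Of 412 such basal-like cells of set 1, 386 had none.

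Free RNA from lysed leukocytes can place class II UMIs in any droplet, and its level was gauged from the reference genes. Their levels in epithelial cells were expressed as a percent of the level in all leukocyte-like cells of the same set. This takes free RNA to have the average leukocyte mix. Dendritic-like cells of set 1 had 34274 CPM of Cd74 against 8454 in all leukocyte-like cells, but 204 of Ptprc against 527.5. Apart from macrophage-like cells for Cd74, other sources were not tested. In luminal-like cells of set 1 the 10 reference genes stood at 0.216 to 0.541%, whereas Cd74 stood at 53.0% (52.8 to 53.2%), H2-Aa at 31.9% and H2-DMa at 87.2%. H2-DMb1 reached 170.5%, above the leukocyte-like level itself, and Ciita was lowest at 7.92% (5.63 to 10.8%). In basal-like cells of set 1 the reference genes stood at 0.113 to 0.442% and the members at 2.14% (Ctss) to 34.6% (H2-DMb1). In proximal luminal-like cells of set 1 the ranges were 0.153 to 0.700% and 2.35% (Ciita) to 53.2% (H2-DMb1). In each of these classes all 8 members had intervals above those of all 10 reference genes, but so had 93.1% (basal-like), 94.4% (luminal-like) and 94% (proximal luminal-like) of all 9172 genes with at least 5 CPM in leukocyte-like cells, so the count is no result about the members. Set to the level in macrophage-like cells alone, Cd74 was at 8.34% in luminal-like cells of set 1.

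In basal-like and luminal-like cells of set 2 most members lay among or near the reference genes. Cd74 was at 0.0732% of the leukocyte-like level in luminal-like cells and the reference genes at 0.0392 to 0.121%. Of the members there, H2-DMa (1.32%, 1.21 to 1.44%) was above all reference genes with its interval, as were H2-DMb1 and Ciita, the latter from 5 UMIs, against 95.7% of all 8450 genes with at least 5 CPM in leukocyte-like cells. In basal-like cells of set 2 no member had an interval above those of all reference genes, where 90.3% of all genes had. In proximal luminal-like cells 3 members did and 94% of all genes, Cd74 (0.657%, 0.601 to 0.717%) being 1 of them, where the highest reference gene was Csf1r at 0.247%. By value alone, 6 of the 8 members were above Csf1r there.

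**Figure D2:**
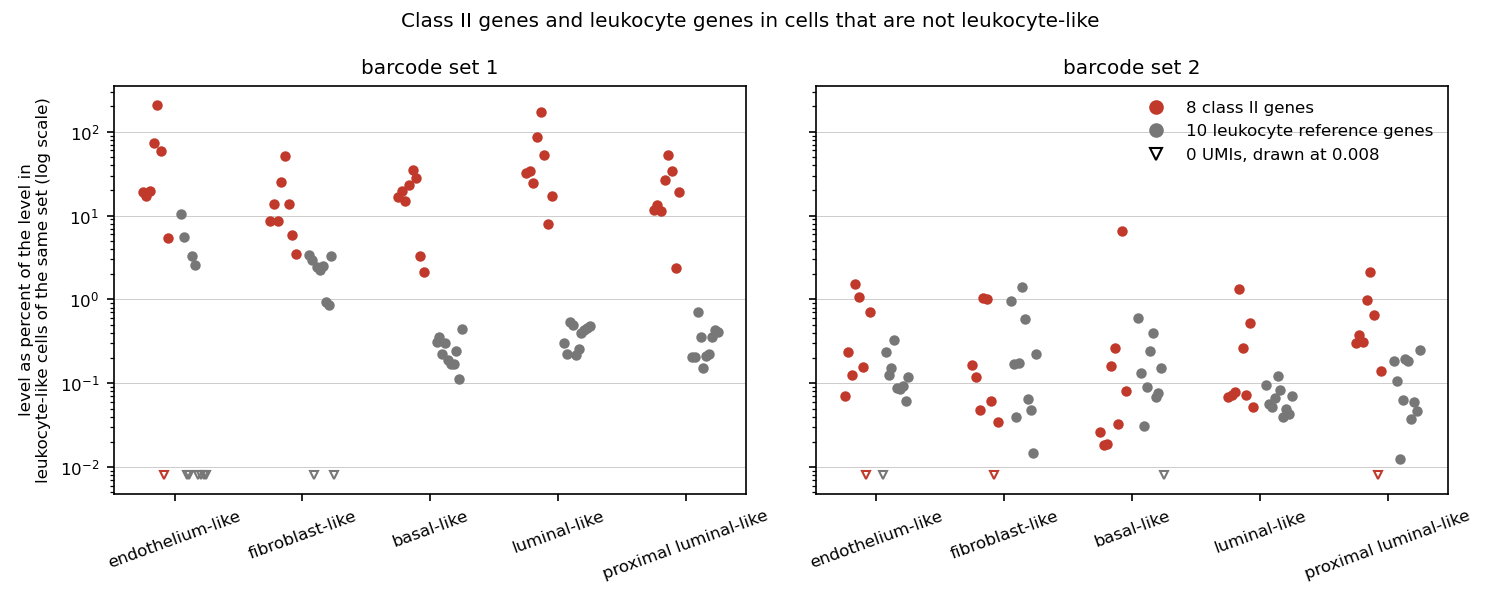
Level in each class as a percent of the level in leukocyte-like cells of the same set (log axis), for the 8 class II genes (red) and 10 leukocyte reference genes (grey). In the 3 epithelial classes of set 1 the class II genes lie at 2.14 to 170.5% and the reference genes at 0.113 to 0.700%. In set 2 the 2 groups of points overlap for most members in basal-like and luminal-like cells. In proximal luminal-like cells of set 2, 6 of the 8 members lie above all reference genes.

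The mixture of members also differed between classes. The part of free RNA in these ratios was not tested. Per 100 Cd74 UMIs of set 1, macrophage-like, dendritic-like and other leukocyte-like cells had 39.6, 40.2 and 40.3 H2-Aa UMIs. Basal-like and luminal-like cells had 22.1 and 22.8, and proximal luminal-like cells 12.9. Per 100 Cd74 UMIs, Ctss gave 6.32 UMIs in macrophage-like cells, 1.49 in luminal-like cells and 0.350 in basal-like cells of set 1, while H2-DMb1 gave 0.947, 2.77 and 1.05.

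Within an epithelial class of set 1, cells differed widely. Luminal-like cells had a median of 15.1 Cd74 UMIs per 10000, quartiles of 1.36 and 57.5, and a highest value of 400.2. Proximal luminal-like cells had a median of 16.4 (quartiles 5.06 and 35.99). Basal-like cells had a median of 1.10 with an upper quartile of 16.9, and 35.98% of them had no Cd74 UMI. At 10 or more Cd74 UMIs per 10000 were 62.9% of proximal luminal-like, 55.7% of luminal-like and 28.45% of basal-like cells, against 3.24% of the other leukocyte-like cells of set 1 and 0.130% of luminal-like cells of set 2.

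Detection shares were compared after thinning each cell to 3000 UMIs, which left out 19 luminal-like cells of set 1 and 90 of set 2. It also left out 270 of the 988 other leukocyte-like cells of set 1. In set 1, a Cd74 UMI was then seen in 82.7% (80.8 to 84.6%) of proximal luminal-like, 71.8% (69.5 to 74.1%) of luminal-like and 44.7% (42.3 to 47.1%) of basal-like cells. Unthinned, the shares were 95.7, 91.4 and 64.0%. The T and NK led clusters of set 1, which should make little class II, still had 26.5 to 41.3% of thinned cells with a Cd74 UMI. The basal-like share overlapped in its interval with those of clusters 3 (33.5 to 49.5%), 4 (20.2 to 43.3%) and 8 (13.8 to 46.8%) of the leukocyte-like cells, whose Cd74 levels were 319, 491 and 3822 CPM against 2403 in basal-like cells. In set 2 the thinned shares were 6.86% (4.30 to 10.3%), 1.03% (0.815 to 1.28%) and 0.592% (0.0717 to 2.12%) in the same 3 classes.

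H2-Aa and H2-Ab1 tended to be found in the same cells. In thinned luminal-like cells of set 1, 46.2% had an H2-Aa UMI, 49.9% an H2-Ab1 UMI and 39.3% both, while the product of the shares is 23.1%. In basal-like cells 21.6% had both against a product of 7.65%, and in proximal luminal-like cells 24.3% against 13.3%. The shares are over cells of 1 barcode set that also differ in cluster.

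**Figure D3:**
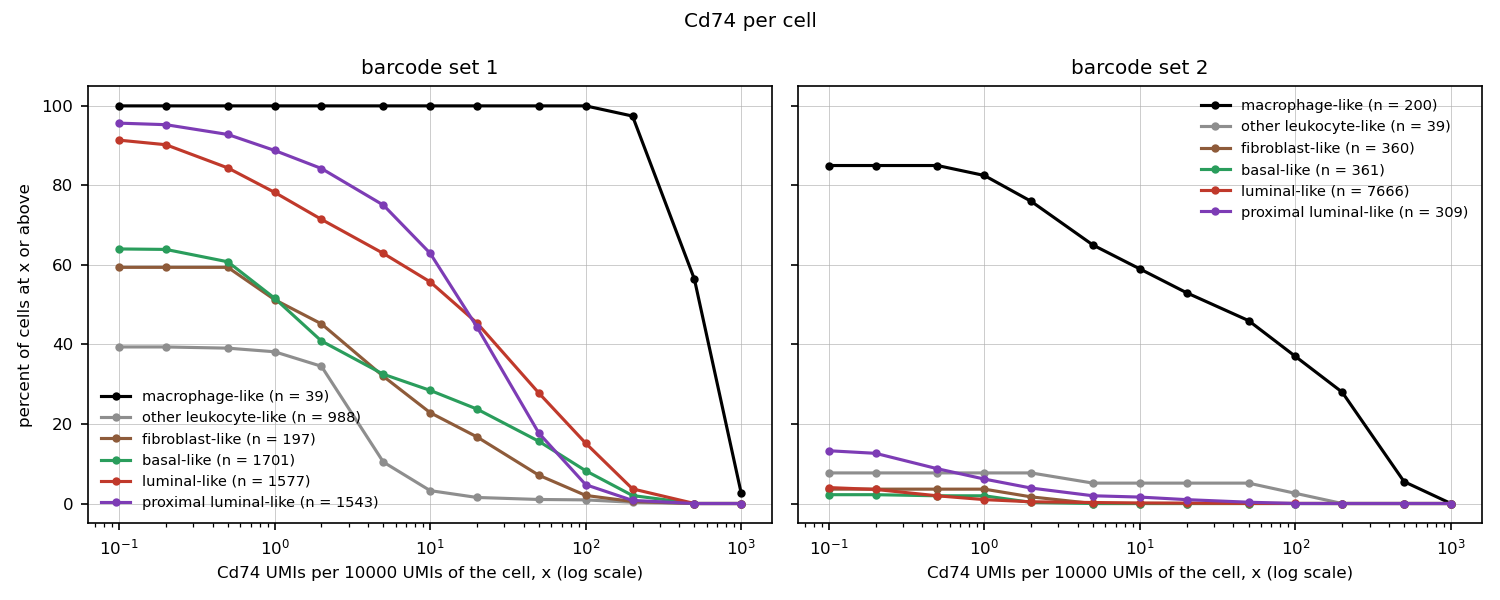
Percent of cells (vertical axis) with at least x Cd74 UMIs per 10000 UMIs of the cell (horizontal log axis) in each barcode set, by class. At 10 per 10000 the set 1 curves pass 62.9% (proximal luminal-like), 55.7% (luminal-like) and 28.45% (basal-like), and the epithelial curves of set 2 lie at or under 1.62%.

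Endothelium-like and fibroblast-like cells showed the same split between sets. Cd74 was at 5002 CPM (4746 to 5267) in 40 endothelium-like cells of set 1 and 18.2 (12.8 to 25.2) in 170 of set 2, with H2-Aa at 607 and 3.04. In the 40 cells Ptprc stood at 55.8 CPM (16 UMIs), or 10.6% of its leukocyte-like level, and 3 cells (7.5%) had a reference UMI. Tyrobp and C1qa had none. Of 22 endothelium-like cells with 20 or more Cd74 UMIs, 20 had no reference UMI. Ctss did not share the split, at 20.9 CPM (7.68 to 45.6) in set 1 and 29.4 (22.3 to 38.0) in set 2. In fibroblast-like cells Cd74 was at 1163 CPM in 197 cells of set 1 and 7.19 in 360 cells of set 2, where the reference genes reached 3.43% of their leukocyte-like level in set 1 and Cd74 13.8%. A small unnamed cluster led by Rgs5 and Col1a1 (89 cells of set 2) had 2 Cd74 UMIs and 26 H2-Ab1 UMIs.

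The ratio of set 1 to set 2 was set beside that of all genes with at least 5 CPM over both sides. Luminal-like cells lay largely in different clusters in the sets, mostly 6, 11, 12 and 1 in set 1 and 2, 3, 1, 4 and 7 in set 2, so their ratios compare unlike mixtures of clusters. In luminal-like cells Cd74 was 528-fold higher in set 1 (log2 9.05, 8.97 to 9.12), H2-Eb1 466-fold, H2-Ab1 348-fold, H2-Aa 339-fold, H2-DMb1 328-fold, H2-DMa 44.0-fold and Ctss 30.5-fold. The median log2 ratio of all 8780 genes was 0.12. All 7 members that reached 5 CPM were at least 2-fold higher, as were 13.4% of all genes, and all 7 were at least 16-fold higher, as were 1.3% of all genes. Apart from Cd74 (8.48 CPM), these members were at 0.378 to 3.07 CPM in set 2. They passed the limit through set 1 alone and could only come out higher there, so the counts are no test of direction. Within the clusters that had 50 cells in both sets, Cd74 was 176-fold higher in cluster 1, 630.5-fold in cluster 6 and 387-fold in cluster 12, and the median log2 ratios of the 7 members were 6.95, 6.90 and 8.60 against 8.40 in the whole class. Among all genes Cd74 ranked 9 from the highest ratio. Of the reference genes there, Ptprc was 6.84-fold and Cd53 4.41-fold higher in set 1 while C1qb was 0.379-fold, each at or below 2.94 CPM.

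In basal-like cells most members ranked high among all genes tested, but all 7 passed the 5 CPM limit through set 1 alone. H2-Eb1, H2-Ab1, Cd74 and H2-Aa took ranks 1 to 4 of 8124 genes. Their ratios rest on 1, 2, 10 and 3 UMIs in set 2, so Cd74, at 636-fold (log2 9.31, 8.43 to 10.37), is the best measured. H2-DMa was 95.5-fold higher (log2 interval 4.10 to 11.88), on 1 UMI in set 2, and Ctss 2.47-fold (log2 0.35 to 2.46), on 9 UMIs. Of 7 members, 7 were at least 2-fold (6.38% of all genes) and 6 at least 16-fold higher in set 1 (0.332%). All 7 were at or under 3.78 CPM in set 2 and could only come out higher in set 1. The counts and ranks are therefore no test of direction.

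Proximal luminal-like cells had smaller ratios. Cd74 was 38.0-fold higher in set 1 (log2 5.25, 5.12 to 5.38), H2-Eb1 53.6-fold and H2-DMb1 12.8-fold, with 7 of 7 members at least 2-fold (7.97% of all genes) and 5 at least 16-fold higher (0.297%). H2-DMa (2.27 CPM) and H2-DMb1 (3.03 CPM) were under 5 CPM in set 2 and could only come out higher in set 1. Cluster by cluster, Cd74 was 1998-fold higher in cluster 5 (log2 10.96, 9.84 to 12.41, from 6 UMIs in set 2) but 12.9-fold in cluster 10 (log2 3.68, 3.56 to 3.82), and these intervals did not overlap. The top 1% of cells held 69.7% of the Cd74 UMIs of the class in set 2 and 48.99% of those of cluster 10. The counting intervals do not cover that spread between cells. In fibroblast-like cells Cd74 was 162-fold higher (log2 7.34, 6.61 to 8.18), with 7 of 7 members at least 2-fold (6.93% of all genes) and 6 at least 16-fold higher (0.525%). Only Cd74 and H2-Aa (7.19 CPM each) reached 5 CPM in set 2 there, so the other members could only come out higher in set 1. With doublets kept, the fibroblast-like log2 ratio of Cd74 was 4.93. Ciita was 25.4-fold higher in luminal-like cells of set 1 (log2 4.67, 3.32 to 6.37) and was too sparse in the other classes.

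**Figure D4:**
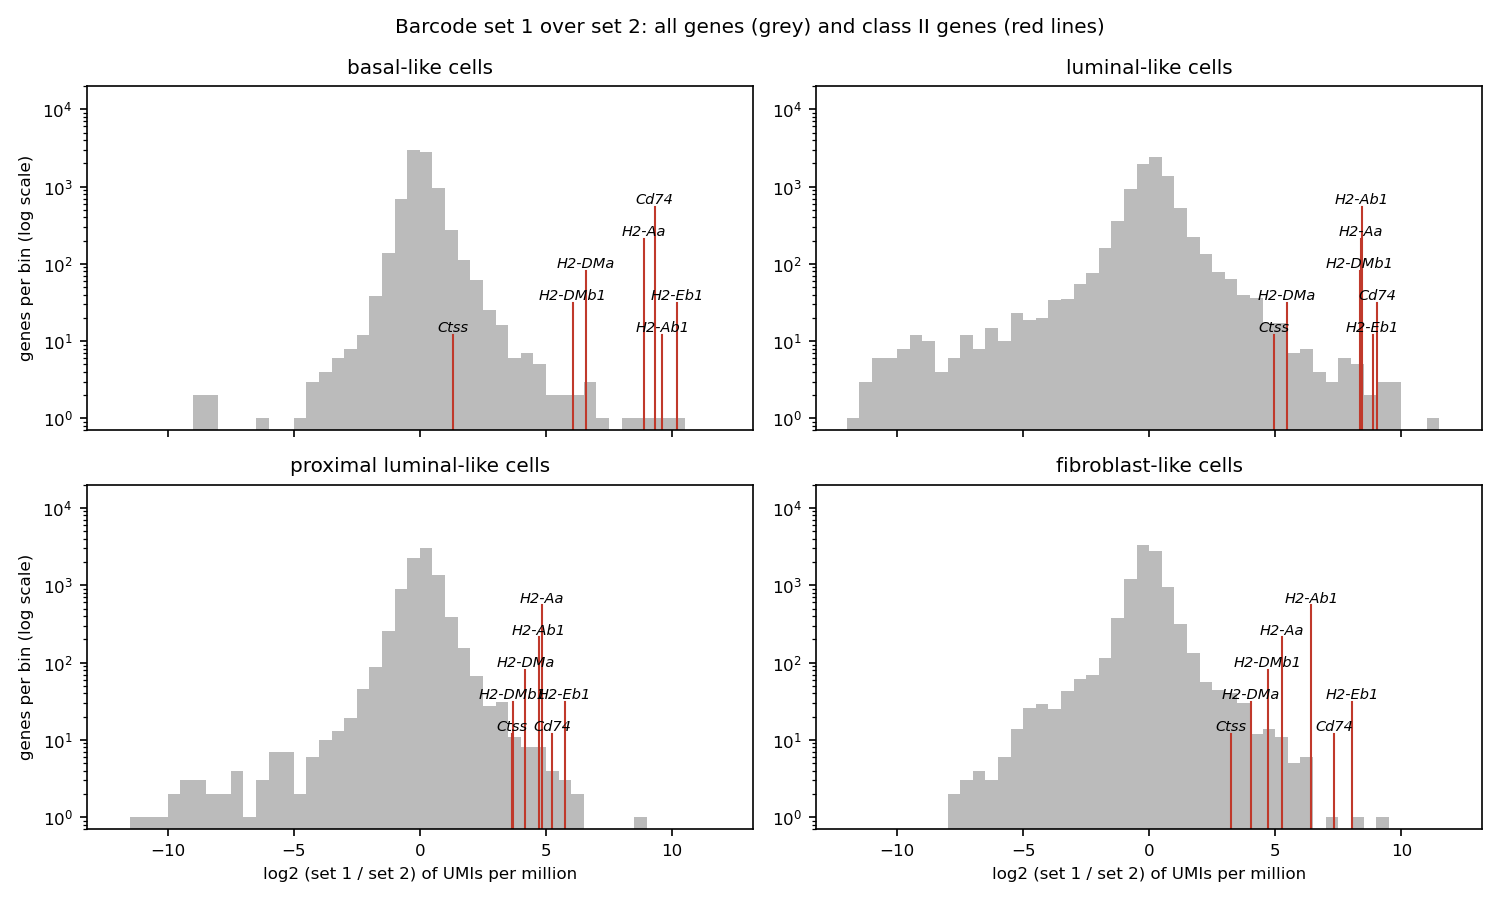
Number of genes (log axis) by log2 ratio of set 1 over set 2 in 4 cell classes, for all genes with at least 5 CPM (grey bars), with the members marked by red lines. The 7 members lie to the right of the bulk in each panel, from Ctss in basal-like cells (log2 1.30) to H2-Eb1 in basal-like cells (log2 10.19). Members under 5 CPM in set 2 could only come out higher in set 1.

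Within set 1, EGFP level was used to split epithelial cells. EGFP UMIs were also seen in 15.3% of leukocyte-like cells of set 1 and 83.8% of those of set 2. EGFP-high cells exceeded the 95th percentile of leukocyte-like cells of the same set (310 EGFP CPM in set 1 and 1213 in set 2). They made up 30.2% of basal-like, 25.6% of luminal-like and 10.4% of proximal luminal-like cells of set 1. In basal-like cells Cd74 was at 2997 CPM in 513 EGFP-high cells and 2075 in the 1188 others (1.44-fold, log2 0.53, 0.51 to 0.56), and H2-Aa at 659 and 460. The medians per cell were 1.33 and 1.003 Cd74 UMIs per 10000, with upper quartiles of 30.9 and 11.2, so the cells overlapped widely. Ctss was 3.25-fold higher in the EGFP-high cells (15.2 and 4.67 CPM), through which alone it reached 5 CPM. It was the 1 of 7 members at least 2-fold higher, where 2.18% of all genes were, and none was at or below 0.5 times the others, where 2.77% were. The EGFP-high basal-like cells were deeper (median 13115 against 10080 UMIs).

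In luminal-like cells of set 1 the direction was the opposite. The 2 sides held different clusters there, as 234 of the 404 EGFP-high cells were of cluster 1, whereas 525, 311 and 259 of the 1173 others were of clusters 6, 11 and 12. Cd74 was at 2740 CPM in 404 EGFP-high cells and 5170 in 1173 others (log2 -0.92, -0.93 to -0.90). All 7 members with 5 CPM were lower in the EGFP-high cells, from 0.523 (H2-Aa) to 0.606 (H2-Eb1) times the others, and the median log2 ratio of all genes was -0.15. None passed 2-fold in either direction, where 2.47% of all genes were at least 2-fold higher and 2.57% at or below 0.5 times. The value changed sign under 2 alternatives. Clustered without integration of the sets, the log2 ratio was 0.0947, and split at 1 EGFP UMI it was 0.0047. Within cluster 11 alone, 94 EGFP-high cells had 2968 CPM of Cd74 and 311 others 7656 (log2 -1.37, -1.40 to -1.34), with medians per cell of 7.23 and 46.8 UMIs per 10000. All 7 members were below 0.5 times there, where 1.36% of all genes were, between 0.329 (H2-Ab1) and 0.447 (H2-DMb1) times the others, while Ptprc was 2.603-fold higher on 15 and 20 UMIs.

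Proximal luminal-like cells of set 1 hardly differed by EGFP in the main clustering. Clustered without integration of the sets, the log2 ratios of Cd74 and H2-Aa were negative, as given in the section on processing. Cd74 was at 3028 CPM in 161 EGFP-high cells and 2876 in 1382 others (log2 0.07, 0.05 to 0.10), no member passed 2-fold in either direction (1.85% of all genes higher and 0.851% lower), and without cells that had a reference UMI the log2 ratio was -0.0026. The clusters inside the class differed from each other. In cluster 5, Cd74 was 1.36-fold (log2 0.45, 0.42 to 0.47) and H2-Aa 2.26-fold higher in 78 EGFP-high cells. In cluster 10, Cd74 was 0.797-fold (log2 -0.33, -0.37 to -0.29) in 83 EGFP-high cells. In set 2 nearly all luminal-like cells were EGFP-high (7423 of 7666), and Cd74 was at 8.45 CPM in them and 9.43 in the 243 others (log2 -0.16, -0.57 to 0.29).

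**Figure D5:**
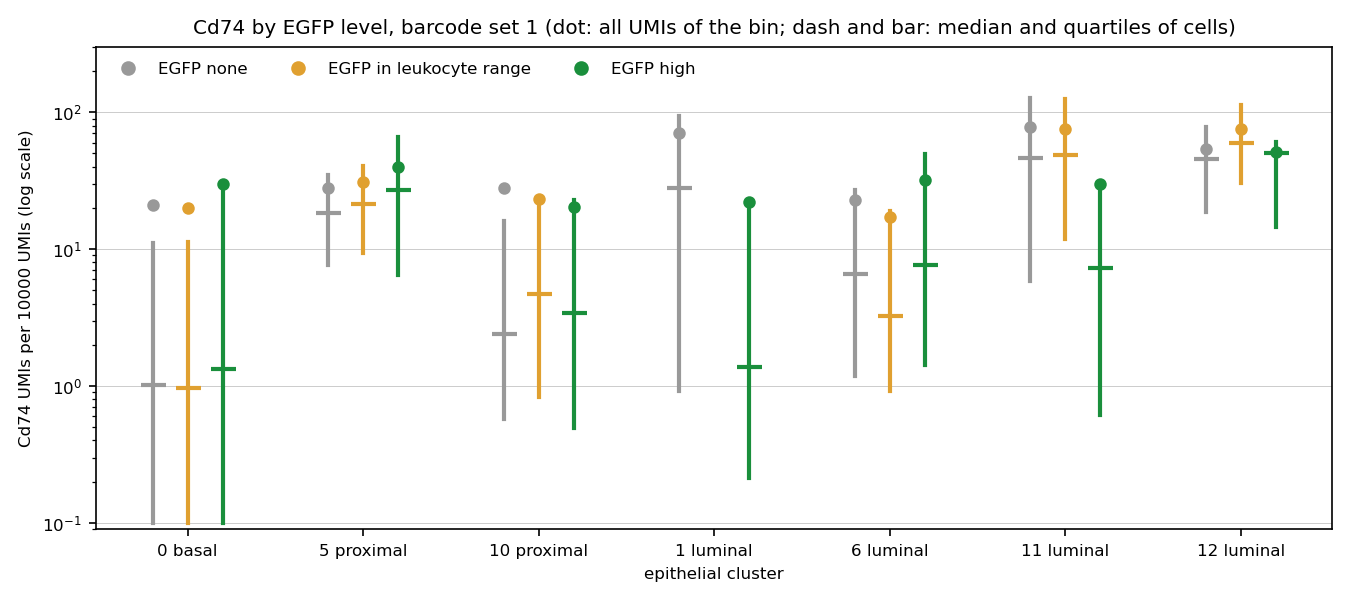
Cd74 UMIs per 10000 UMIs (log axis) in the epithelial clusters of set 1 by EGFP level, with dots for all UMIs of a bin and dashes and bars for the median and quartiles of its cells (quartiles of 0 are drawn at the axis floor). In cluster 11 the EGFP-high median is 7.23 against 46.3 in cells with no EGFP, and in cluster 5 it is 26.9 against 18.4.

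Of 25 other genes of the class II pathway, 23 were analysed. In the set comparison 5 of 15 with at least 5 CPM were at least 2-fold higher in basal-like cells of set 1 (all genes 6.38%), 5 of 14 in luminal-like cells (13.4%), 2 of 14 in proximal luminal-like cells (7.97%) and 5 of 13 in fibroblast-like cells (6.93%), and none was 2-fold lower in the 4 classes. The medians of the list were log2 0.72, 0.68, 0.73 and 0.46, against 0.03, 0.12, 0.12 and -0.06 over all genes. Genes that passed the 5 CPM limit through set 1 alone, as H2-DMb2 did in basal-like cells, could only come out higher there. The counts and medians are therefore no test of direction.

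For Irf1, a transcription factor that acts on a Ciita promoter, luminal-like cells had 53.99 CPM in set 1 and 9.12 in set 2 (5.92-fold, log2 interval 2.47 to 2.66), and Ifngr1, a chain of the interferon gamma receptor, was at 56.5 and 16.4 (3.44-fold). In basal-like cells the ratios were 2.35 for Irf1 and 3.31 for Ifngr1. H2-DMb2 had no UMI in basal-like cells of set 2 and was at least 11.1-fold higher in set 1. Irf8 was 3.09-fold higher in luminal-like and 3.53-fold in basal-like cells. Ctsl, which encodes cathepsin L, differed 10.5-fold between luminal-like cells of the sets (570 CPM in set 1 and 54.3 in set 2), while basal-like cells had 1988 and 2247 CPM. Within luminal clusters 1, 6 and 12, Ctsl was 10.99-fold, 1.62-fold and 1.30-fold higher in set 1, Irf1 7.19-fold, 4.83-fold and 1.10-fold, and Ifngr1 2.12-fold, 1.89-fold and 2.67-fold. Ifi30, the thiol reductase of the pathway, differed little (84.9 and 65.6 CPM in luminal-like cells).

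The subunits that bind the X and Y boxes were present in both sets. In luminal-like cells Rfx5 was at 5.70 and 2.81 CPM, Rfxap at 26.5 and 25.7, Rfxank at 6.68 and 6.96, and Nfyb at 31.3 and 18.1 in sets 1 and 2. H2-Oa and H2-Ob, which restrain H2-DM, stood at 203 and 98.3 CPM in dendritic-like cells of set 1 but gave 3 and 1 UMIs in all luminal-like cells of that set. The costimulatory gene Cd86 was at 921 CPM in macrophage-like and 0.625 in luminal-like cells of set 1, and Cd40 at 392.1 and 0.977.

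Ifng, the gene of interferon gamma, was added to the lists after the class II values had been seen. In set 1 it gave 491 UMIs in the 988 other leukocyte-like cells (108 CPM, 99.1 to 118), highest in the cluster led by Gzma and Klrd1 (213 CPM). In set 2 it gave 7 UMIs in 39 such cells (61.4 CPM, 24.7 to 126). The other leukocyte-like cells made up 16% of set 1 and 0.422% of set 2. Luminal-like cells had 12 Ifng UMIs in set 1 and 0 in set 2. Whether these values bear on the class II levels was not tested.

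Finally, genes were ranked by likeness of their pattern to the mean of H2-Aa, H2-Ab1, H2-Eb1 and Cd74, as Pearson's r of log2(CPM + 1) over the 12 sums of a class and set with at least 50 cells. Outside the members, genes among the 10 highest r of 6220 genes with 50 CPM or more in 1 of the sums were Golgb1 (0.81), the class I genes H2-K1 (0.81) and H2-T23 (0.79), Ppt1 (0.78), Cap1 (0.77), Flii (0.76), Dnajb11 (0.76), Atp6v1f (0.76) and AW112010 (0.75). H2-Aa, H2-Ab1, H2-Eb1 and Cd74 reached 0.974 to 0.998, but they make up the mean itself, so their high r was built in. Of the other members, H2-DMa reached 0.967, H2-DMb1 0.944 and Ctss 0.74, and Ciita was under the limit. H2-K1 ranged from 377 CPM in luminal-like cells of set 2 to 7691 in luminal-like cells of set 1. The points share 2 barcode sets, and the likeness is a description.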

How the data were processed

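Libraries were made with the 10x 3′ v2 chemistry after collagenase and TrypLE dissociation. Per the study's methods and the submitters' processing notes, the authors counted UMIs with Cell Ranger 3.1.0 against mm10 with reporter and transgene sequences added, and filtered out suspected empty droplets and multiplets, as well as cells with a high mitochondrial share. The deposited values are natural log values, ln(1 + 10000 × UMIs / total), although the table is named as counts. Back-transformed cells summed to 10000, and 100% of 56988269 values gave whole UMIs within 0.001. The recovered UMIs carried all further steps. The lowest number of genes in a cell was 1002 and the highest mitochondrial share 9.99%. Cell totals given in the study's methods were not used to assign the barcode suffixes, so PIN and PCa were not compared.

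The members, the pathway list and the reference genes were chosen with earlier results of these data known. Scrublet (scanpy 1.11.5) called 0 doublets by its automatic limit, so a score limit of 0.25, set after seeing the scores, removed 155 and 175 cells. Seurat 5.3.0 in R 4.3.3 integrated the sets (2000 variable features, 20 dimensions, 30 components, resolution 0.5), with class II genes and EGFP kept out of the features. A class needed 3 markers seen in 25% of cells and no lead of another class among its 10 leading genes. Immune lists were pooled for this at the first level, a choice made after the clusters were seen, and a keratin-led leukocyte cluster of 26 cells was kept out. Values needed 20 cells and comparisons 50 cells a side. A sum of 0 was set to 3 UMIs in ratios, and no ratio was formed where both sums were 3 or less or where that bound was uninformative. Ratios carry conditional binomial 95% intervals. The recovery, ratios and thinning were tested on simulated data. The named genes were the members, the pathway list and the 10 genes most like the members in pattern, of which some are not reported here.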

Additional observations from a re-analysis of the deposited data

Results flagged for a closer look

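The EGFP contrast of Cd74 in set 1 pointed in opposite directions in 2 epithelial clusters. In basal cluster 0 the log2 ratio of EGFP-high over other cells was 0.53, and in luminal cluster 11 it was -1.37. The difference between the clusters was not tested, since all cells come from 1 barcode set without labelled replicates. Outliers among samples could not be sought with 1 library a group.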

How the results depend on the processing

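Of 330 recomputed values, 180 stayed within the counting interval of the reported value, 144 left it in the same direction, and 6 changed sign, all of them EGFP ratios. Each cell weighing the same gave 54804 and 12846 CPM of Cd74 in macrophage-like cells of sets 1 and 2. The thinned Cd74 share of luminal-like cells in set 1 was 74.2% without integration and 77.4% at 6000 UMIs, and in set 2 1.64% at 6000 UMIs and 0.667% without cells that had a reference UMI. The log2 Cd74 ratio of set 1 over set 2 was 8.85, 9.33 and 8.93 in luminal-like cells and 5.06, 4.27 and 5.49 in proximal luminal-like cells with doublets kept, without integration and with equal cells, and 4.93 in fibroblast-like cells with doublets kept. Without integration the fibroblast-like cluster stayed unnamed and gave no value, and with doublets kept a luminal cluster led by Defa genes stayed unnamed.

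The log2 Cd74 ratio of EGFP-high over other cells in set 1 moved as follows. In basal-like cells it was 0.72 with equal cells, 0.49 without reference UMIs and 0.31 split at 1 UMI. In luminal-like cells it was -0.87 with doublets kept, 0.0947 without integration, -0.86 at resolution 1.0, -0.76 with equal cells, -0.97 without reference UMIs, -0.88 at the 99th percentile and 0.0047 split at 1 UMI. In proximal luminal-like cells it was -0.51 without integration, 0.0154 at resolution 1.0, 0.17 with equal cells, -0.0026 without reference UMIs and 0.13 at the 99th percentile. For H2-Aa it changed sign to 0.0633 in luminal-like cells split at 1 UMI and to -0.15 in proximal luminal-like cells without integration. The cause was not tested.

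Cd74 as a percent of the leukocyte-like level in set 1 was, in basal-like cells, 28.7 with doublets kept, 28.1 without integration, 27.7 without reference UMIs and 4.47 with macrophage-like cells as the source. In luminal-like cells it was 53.3 without integration, 52.5 at resolution 1.0, 52.4 without reference UMIs and 8.34 against macrophage-like cells. In proximal luminal-like cells it was 33.1, 39.9, 34.0, 34.6 and 5.39 with doublets kept, without integration, at resolution 1.0, without reference UMIs and against macrophage-like cells. Of the 10 genes of like pattern, 8 were shared with a pseudocount of 10 and 9 with classes of 100 or more cells.

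No paired analysis was possible because PIN and PCa have a single library apiece. Counting intervals leave out the variation between animals and libraries, and in set 2 the basal-like ratios rest on 1 to 10 UMIs.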
